A study of Mus musculus with 6 samples.

Results

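Genes of the extracellular matrix and its remodelling were examined in mouse hearts, 3 from ND-fed and 3 from HFD-fed animals: the collagens, the matrix metalloproteinases (MMPs) and their inhibitors (TIMPs), the lysyl oxidases, 8 named matrix glycoproteins and proteoglycans with elastic fibre genes, and the TGF-beta ligands. They were chosen by the gene name that the array design gives each probe, and no measured value is part of this rule. Earlier results of these data were known when the rule was set. The rule took 124 of the 55681 probes other than controls, which carry 86 of 36163 gene names. All mice were male C57BL/6. From 4 weeks of age they received either standard chow (normal diet, ND) or a high fat diet with 60% of its kcal from fat (HFD), for 4 months, and RNA of heart tissue was then hybridised to Agilent mouse arrays in 1 colour, with 1 array per heart. The labels give no genotype beyond the strain, name no transgene and do not say which parts of the heart were taken.

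The matrix of the heart is a fibrous scaffold around the muscle cells. Fibroblasts secrete the fibrillar collagens I and III, chaperones and hydroxylases fold them in the endoplasmic reticulum, and lysyl oxidases cross-link the fibrils outside the cell. MMPs cut these proteins, TIMPs block MMPs, and TGF-beta is the best known inducer of matrix genes in fibroblasts. Excess matrix is called fibrosis and stiffens the heart.

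A level below is the log2 of the background-corrected signal minus the 75th percentile of its array, so that 1 unit is a doubling. Levels of different probes are not comparable with each other, since probes bind with different strength, and only hearts are compared. A probe was tested when all 3 arrays of 1 diet or of both gave a signal well above background, which held for 78 of the 124 probes and 60 of the 86 genes. The 26 genes without a tested probe were 11 collagens and 15 MMPs, and 19 of them were not well above background on any of the 6 arrays. Among the 26 were the cartilage collagen Col2a1 and the gelatinase Mmp9, whose probe passed on no ND array and on 1 HFD array. Col6a3 has no probe of that name on the array. A pair of tested genes fit the rule by name only. Col4a3bp encodes a ceramide transfer protein and Loxhd1 a protein of hair cells.

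Some hearts stood apart within their diet. All 6 arrays lay on 1 slide and were scanned in 1 scan, with 49.2% to 52.9% of probes well above background and no saturated spot. HFD hearts 1 and 2 occupied one row of the slide, while HFD heart 3 and all ND hearts occupied the other. HFD heart 2 stood apart in markers of atrial muscle, which only the upper chambers express strongly. Sarcolipin (Sln), an atrial regulator of calcium uptake, had levels of 3.43, 5.05 and 6.97 in the ND hearts and 7.45, -2.14 and 6.46 in HFD hearts 1, 2 and 3. Over the 6 tested genes of the atrial list the mean level was 3.65, 4.72 and 6.11 in the ND hearts and 6.60, 0.96 and 5.61 in the HFD hearts. The array of HFD heart 2 also had the flattest response to the spiked-in control RNAs, with a slope of 0.896 against 0.921 to 0.958 on the other arrays. Values without single hearts are given below where leaving one out changed the side of p 0.05.

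No collagen or matrix remodelling gene passed adjustment for the number of probes tested. The smallest adjusted p among them was 0.12, for Mmp14 (limma, Benjamini-Hochberg over 27587 probes), whereas 4 of all tested probes (0.0145%) passed. At an unadjusted p below 0.05 there were 7 of the 78 probes (8.97%), against 11.9% of all tested probes. Of these, 5 were higher in HFD (6.41%, against 5.23% of all probes) and 2 were lower (2.56%, against 6.64% of all). None of the 78 reached both this limit and a 2-fold change, which 0.613% of all probes did. The diets did not overlap for 13 of the 78 probes, or 16.7%, against a background of 19%. They were higher in HFD for 9 (11.5%, against 7.92% of all) and lower for 4 (5.13%, against 11.1% of all). Of the 5 higher probes at p below 0.05, the Col9a1 probe and 1 of Col6a6 entered the test only through their HFD arrays. Among the 72 probes well above background on all 6 arrays, 5 were at p below 0.05 (6.94%), 3 higher and 2 lower, against 11.9% of all such probes. Of all 25924 such probes, 1268 were higher and 1826 lower. With both directions counted, the share of matrix probes that separated the diets was thus no higher than that of probes in general. By direction, over the 78 probes, the share higher in HFD was above that of all probes and the share lower in HFD was below it. Among the 72 probes the share higher at p below 0.05 was not above that of all such probes, while the share lower was below it. The fold changes were small, from -0.69 for Timp4 to 0.69 for Mmp14 on the log2 scale. In the next paragraphs "at p below 0.05" means before adjustment.

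The centre of the genes' fold changes lay slightly above 0. The log2 fold change was above 0 for 54 of the 78 probes, and for 48% of all probes. Each gene was then taken by its brightest tested probe, and the median log2 fold change was 0.08 over the 60 genes and -0.01 over all 20569 tested genes. This median was 0.21 without HFD heart 2 and turned to -0.04 without HFD heart 1. The position of the group relative to 0 therefore changed with a single heart. RNA of a whole tissue also cannot tell fewer cells of a type from less RNA per cell.

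**Figure D1:**
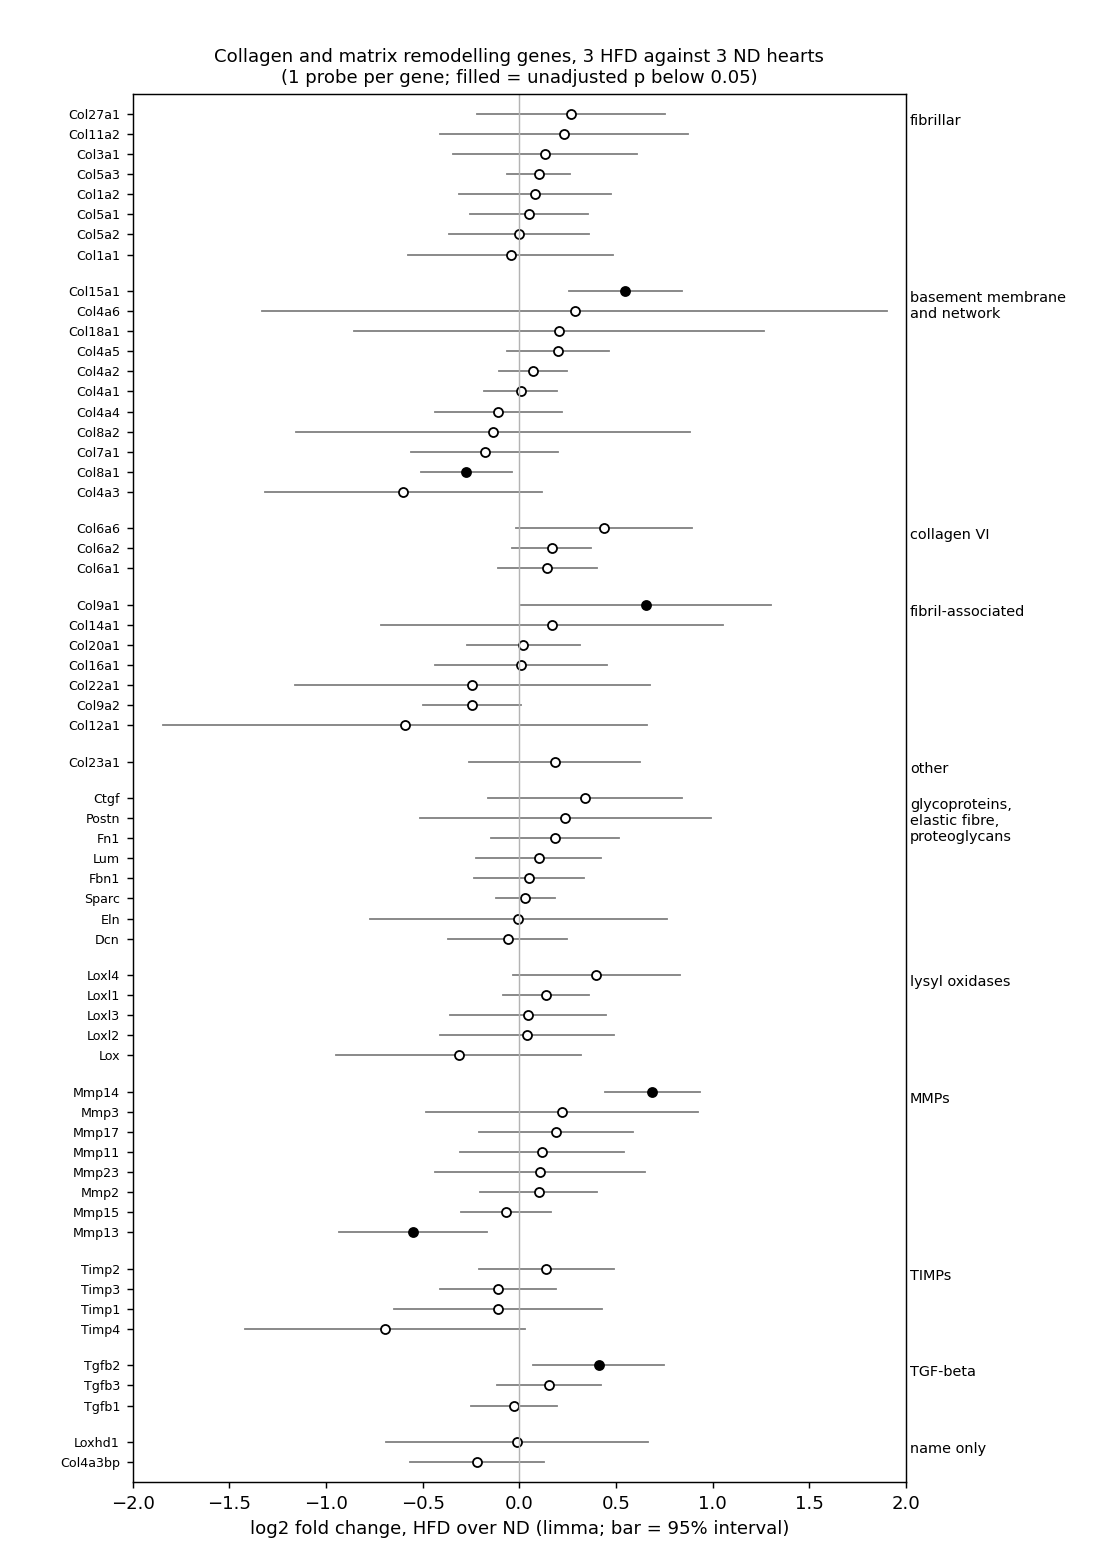
Log2 fold change of HFD over ND (horizontal axis) for the 60 tested genes (vertical axis, grouped by role, 1 probe per gene), each point with its 95% interval from limma and filled where the unadjusted p is below 0.05. Most intervals cross 0, and the filled points are Col15a1, Col9a1, Mmp14 and Tgfb2 to the right of 0 and Col8a1 and Mmp13 to the left.

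The probes behind the 3 increases with the smallest p are shown for what each one reads. They come from the array design, in the sense of the mRNA, with positions on mm9. The Mmp14 probe A_52_P304128 lies at chr14:55058775-55058834 on the plus strand. The Tgfb2 probe A_65_P10913 lies at chr1:188449333-188449392 on the minus strand, and its capitals mark the last cysteine codons of the mature growth factor with the codon between them. The Col15a1 probe A_55_P2060386 lies at chr4:47283786-47283845 on the plus strand, and its capitals mark GGN codons, which encode glycine.
Mmp14: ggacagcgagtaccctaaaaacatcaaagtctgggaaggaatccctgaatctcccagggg
Tgfb2: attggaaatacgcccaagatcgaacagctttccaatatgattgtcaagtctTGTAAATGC
Col15a1: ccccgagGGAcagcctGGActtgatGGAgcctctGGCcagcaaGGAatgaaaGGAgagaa
In the Col15a1 probe a GGN codon recurred every 3 codons, 6 times in a row, from base 8 on. This is the signature of the collagen triple helix, in which glycine takes 1 of every 3 residues. A run of 5 such codons (GGNNNNNNN repeated, sense strand only) was found in 3 of the 63 collagen probes, or 4.76%, and in 0.0306% of the 55557 probes outside the rule.

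Mmp14, which encodes a protease anchored in the cell membrane that cuts collagen and activates MMP2, had the smallest p of the 78 probes. Its levels were -2.53, -2.32 and -2.38 in the ND hearts and -1.59, -1.85 and -1.72 in the HFD hearts. Every HFD heart lay above every ND heart, and HFD hearts 1 and 2, which sat at opposite ends for 18 of the 60 genes, were both above the ND hearts. The difference was 0.69 log2 units with an SE of 0.10 (95% interval 0.44 to 0.93), or 1.61-fold, and the adjusted p was 0.12 (limma). It stayed at p below 0.05 in all 18 other settings tried, each heart left out in turn included, with a log2 fold change of 0.45 to 0.75 and an adjusted p of 0.075 to 0.47.

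Among the other proteases, Mmp13, a collagenase, was lower in HFD at p below 0.05. It was a dim probe, with levels of -4.06, -3.87 and -3.58 in the ND hearts and -4.60, -4.22 and -4.34 in the HFD hearts, so that the diets did not overlap. Its log2 fold change was -0.55 (SE 0.16, adjusted p = 0.29, limma). The gelatinase Mmp2, whose proenzyme MMP14 activates, had a log2 fold change of 0.10 (95% interval -0.20 to 0.40), and Mmp15, another membrane-anchored MMP, of -0.07 (95% interval -0.30 to 0.16). Of the 8 MMP genes tested, 1 was higher and 1 lower at p below 0.05. The median log2 fold change of the 8 was 0.11.

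The TIMPs were led by Timp4, an inhibitor that the heart expresses strongly. Its levels were 3.33, 3.25 and 3.28 in the ND hearts and 1.89, 2.84 and 3.03 in the HFD hearts. All HFD hearts were below all ND hearts, and HFD heart 1 was far below the other two. The log2 fold change was -0.69 (SE 0.30, 95% interval -1.42 to 0.03) and the adjusted p 0.44 (limma). Without HFD heart 1 it was -0.34 with an SE of 0.09, at p below 0.05 with an adjusted p of 0.32 (limma), a smaller difference with a smaller error, and without HFD heart 3 it was -0.92 and also passed (adjusted p = 0.41, limma). Timp1, an inducible inhibitor, had a log2 fold change of -0.11, Timp2, which also takes part in MMP2 activation, of 0.14, and Timp3, which binds to the matrix itself, of -0.11. None of these 3 passed p below 0.05. Without HFD heart 1 Timp1 passed at -0.36 (adjusted p = 0.34), and without HFD heart 2 Timp2 passed at 0.29 (adjusted p = 0.32, limma). The mean level of the 4 TIMP genes was 3.89, 3.87 and 3.76 in the ND hearts and 3.65, 3.57 and 3.71 in the HFD hearts. This separation rested on Timp4, since the mean of the other 3 was 4.07, 4.08 and 3.92 in the ND hearts and 4.23, 3.81 and 3.94 in the HFD hearts, which overlap.

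**Figure D2:**
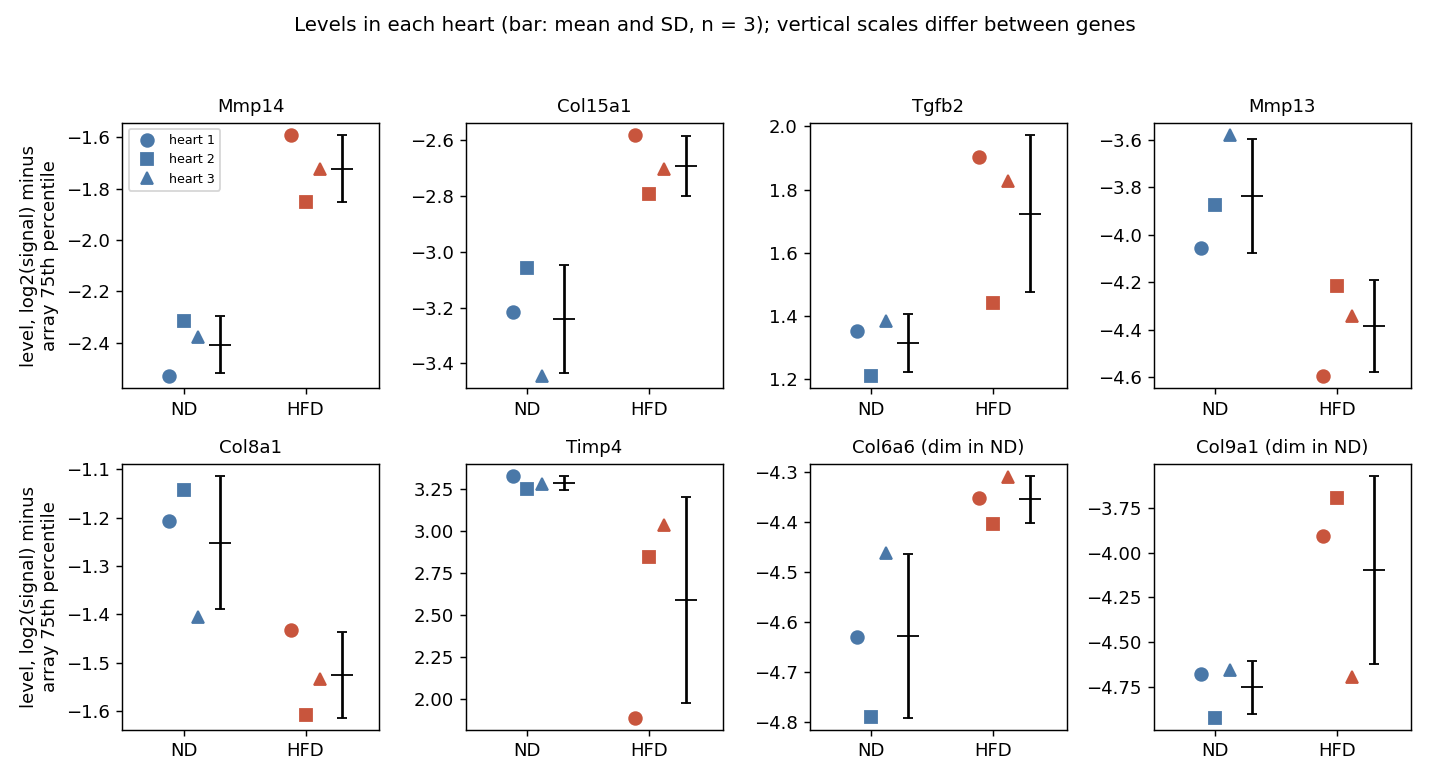
Level (vertical axis, log2 signal minus the 75th percentile of the array) in each ND and HFD heart for the 7 genes with a probe at p below 0.05 and for Timp4, with the mean and SD of 3 hearts beside the points. Mmp14 separates the diets with little spread in either, while HFD heart 1 sets much of the Timp4 difference and Col9a1 overlaps between the diets.

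None of the fibrillar collagens, the bulk of scar tissue, differed between the diets at p below 0.05. Col1a1 had levels of 3.69, 3.81 and 3.84 in the ND hearts and 4.02, 3.23 and 3.95 in the HFD hearts. Both the highest and the lowest heart were HFD hearts. The log2 fold change of Col1a1 was -0.05 (95% interval -0.58 to 0.48), that of Col1a2, the second chain of collagen I, was 0.08 (95% interval -0.31 to 0.48), and that of Col3a1 was 0.13 (95% interval -0.34 to 0.61). Col5a1 and Col5a2, chains of the collagen V that nucleates fibrils, had values of 0.05 and -0.00. The median over the 8 tested fibrillar genes was 0.09. These intervals allow a change of up to 0.58 log2 units for Col1a1, so that a modest difference was not detectable with 3 hearts per diet.

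Leaving out HFD heart 2 changed this reading for Col1a2. Without it, Col1a2 passed p below 0.05 at a log2 fold change of 0.25 (adjusted p = 0.40, limma), while Col1a1 stood at 0.21 (adjusted p = 0.41) and Col3a1 at 0.33 (adjusted p = 0.40, limma) without passing. Without HFD heart 1, Col1a1 stood at -0.19, Col1a2 at -0.06 and Col3a1 at -0.01. The fold changes of collagen I thus took opposite signs with the omission of either heart.

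The basement membrane and network collagens held the gene with the next smallest p. Collagen XV, encoded by Col15a1, links basement membranes to the fibrils around them and is found around heart muscle fibres and capillaries. The probe shown above had levels of -3.22, -3.06 and -3.45 in the ND hearts and -2.58, -2.79 and -2.70 in the HFD hearts. Every HFD heart was above every ND heart, by 1.46-fold on average (log2 difference 0.55, SE 0.12, adjusted p = 0.23, limma). It was at p below 0.05 in all 18 other settings, 1 of which tested the average of the gene's 3 probes instead. The gene's other probes, which overlap each other near the end of the transcript, gave 0.33 (adjusted p = 0.53) and 0.04 (adjusted p = 0.93, limma), and both overlapped between the diets. The difference passed p below 0.05 in 1 of 3 probes, and in the first of the others at 0.47 (adjusted p = 0.46, limma) when HFD heart 3 was left out.

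Col8a1, a short-chain network collagen of vessels, was lower in HFD at p below 0.05. Its levels were -1.21, -1.14 and -1.41 in the ND hearts and -1.43, -1.61 and -1.53 in the HFD hearts, which do not overlap by a narrow margin. HFD minus ND came to -0.27 log2 units (SE 0.10, adjusted p = 0.37, limma), and it lost p below 0.05 in 7 of the 18 other settings, among them those without ND heart 1 or 2 or HFD heart 2 or 3 (-0.27 to -0.22). The main basement membrane chains Col4a1 and Col4a2 had log2 fold changes of 0.01 (95% interval -0.18 to 0.19) and 0.07 (95% interval -0.11 to 0.25). Col4a3 had a log2 fold change of -0.60 with an SE of 0.29, and without HFD heart 1 it passed at -0.89 (adjusted p = 0.30, limma).

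Collagen XVIII, whose C-terminal fragment is endostatin, spread widely among the HFD hearts. The Col18a1 probe A_55_P2059352 had levels between 0.66 and 0.998 in the ND hearts and of 1.95, 0.17 and 0.89 in the HFD hearts. HFD heart 1 was above and HFD heart 2 below all ND hearts. The SD was 0.89 among HFD hearts and 0.18 among ND hearts, and a second probe gave SDs of 1.02 and 0.19. The log2 fold change of 0.21 had a 95% interval of -0.85 to 1.27, and it was 0.62 without HFD heart 2 and -0.27 without HFD heart 1, neither past p 0.05.

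Collagen VI forms beaded filaments that tie cells to the matrix, and in fat tissue its genes are known markers of fibrosis in obesity. The mean level over Col6a1, Col6a2 and Col6a6 was 0.55, 0.68 and 0.55 in the ND hearts and 0.86, 0.80 and 0.88 in the HFD hearts, without overlap. Taken singly, Col6a1 and Col6a6 overlapped between the diets and Col6a2 did not. The difference was largest for Col6a6, with a log2 fold change of 0.44 (adjusted p = 0.44, limma). This Col6a6 probe was well above background on only 2 of the ND arrays and entered the test through its HFD arrays. Its direction, and the separation of the mean that includes it, are therefore not support for a difference. The probe passed p below 0.05 without HFD heart 1, at 0.55 (adjusted p = 0.41), and without ND heart 2, at 0.60 (adjusted p = 0.49, limma). The log2 fold changes of Col6a1 and Col6a2 were 0.14 (95% interval -0.11 to 0.40) and 0.17 (95% interval -0.04 to 0.37). A second Col6a6 probe and the only tested Col9a1 probe were at p below 0.05 but were not well above background on any ND array, so their folds are bounds. They could enter the test only through HFD arrays, so their direction is not support for a difference. The bounds set the mean of the HFD hearts against, per ND array, the higher of the probe's own signal and the dimmest signal called above background. Col6a6 was at least 1.20-fold higher (adjusted p = 0.38) and Col9a1, a fibril-associated collagen of cartilage, at least 1.49-fold higher (adjusted p = 0.42, limma), with HFD heart 3 inside the ND range for Col9a1. Both had lost p below 0.05 in 12 of the 17 other settings that gave them a value. Col12a1, another fibril-associated collagen, had a log2 fold change of -0.59, which was 0.02 without HFD heart 2 (adjusted p = 0.97, limma).

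Of the TGF-beta ligands, Tgfb2 was higher in HFD at p below 0.05 and the others did not pass. The probe shown above had levels of 1.35, 1.21 and 1.38 in the ND hearts and 1.90, 1.44 and 1.83 in the HFD hearts. The diets did not overlap, and HFD heart 2 was the closest to the ND hearts. HFD exceeded ND by 0.41 on the log2 scale (SE 0.14, 1.33-fold, adjusted p = 0.35, limma), and a probe further along the transcript gave 0.37 (adjusted p = 0.53) with an overlap in HFD heart 2. Without that heart the first probe gave 0.55 and the other 0.58, both at p below 0.05, with adjusted p values of 0.25 and 0.27 (limma). The first probe lost p below 0.05 in 7 of the 18 other settings, 1 of them the average of both probes. Among the 7 were those without HFD heart 1 (0.32, adjusted p = 0.47), HFD heart 3 (0.36) and ND heart 1 or 2 (0.43 and 0.36, limma). Tgfb1, the ligand most often linked to fibrosis, had a log2 fold change of -0.03 (95% interval -0.25 to 0.19), and Tgfb3 of 0.15 (95% interval -0.11 to 0.42).

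Among the glycoproteins and proteoglycans none of 8 genes was at p below 0.05. Ctgf, a secreted growth factor modulator that TGF-beta induces, had levels of 5.37, 5.28 and 5.22 in the ND hearts and 5.98, 5.73 and 5.17 in the HFD hearts. HFD heart 3 was the lowest of all 6. Its log2 fold change was 0.34 (95% interval -0.16 to 0.84), and without HFD heart 3 it passed p below 0.05 at 0.57 (adjusted p = 0.26, limma). Postn, the periostin of activated fibroblasts, had levels of 1.06, 1.14 and 0.93 in the ND hearts and 1.92, 0.65 and 1.27 in the HFD hearts. The HFD hearts again enclosed the ND hearts, with an SD of 0.63 against 0.11. The log2 fold change of Postn was 0.24 and that of fibronectin (Fn1), an early scaffold on which collagen is laid down, was 0.18. Without HFD heart 2 both passed p below 0.05, at 0.55 (adjusted p = 0.39) and 0.31 (adjusted p = 0.34, limma). Without HFD heart 1 they stood at -0.08 and 0.06. The small proteoglycans Dcn and Lum, which coat collagen fibrils, had values of -0.06 and 0.10, elastin (Eln) of -0.01, fibrillin (Fbn1) of 0.05, and the collagen-binding protein Sparc of 0.03.

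The lysyl oxidases cross-link collagen and elastin. None of the 5 was at p below 0.05. The Loxl1 probe A_55_P2096226 had levels of 0.76, 0.65 and 0.80 in the ND hearts and 1.07, 0.84 and 0.93 in the HFD hearts, without overlap and with a log2 fold change of 0.21 (adjusted p = 0.44, limma), while its other probe gave 0.14 and overlapped. Without HFD heart 2 the first probe passed p below 0.05 at 0.26 (adjusted p = 0.37, limma). The 3 probes of Loxl2 disagreed, at 0.23, 0.04 and -0.16, as did the pairs of Lox (0.12 and -0.31) and of Col4a6 (0.29 and -0.09), so no direction is given for these 3 genes. For Lox the dimmer probe, at 0.12, was well above background on only 2 of the ND arrays. Without HFD heart 1 the brighter probe passed p below 0.05 at -0.61 (adjusted p = 0.26, limma), while the dimmer stood at -0.22 without passing. The Loxl2 probe at 0.23, the dimmest of its 3, passed at 0.30 (adjusted p = 0.44, limma) without HFD heart 3.

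The HFD hearts spread more widely than the ND hearts for most of these genes. The median SD among the 3 HFD hearts was 0.25 for the 60 genes and 0.13 for all tested genes. Among the ND hearts it was 0.13 and 0.10. The SD was larger in HFD than in ND for 47 of the 60 genes (78.3%), against 63% of all genes. The highest and lowest hearts recurred. HFD heart 1 held the highest level of the 6 for 35 of the 60 genes (58.3%), against 13.8% of all 20544 genes with a value on every array, and HFD heart 2 held the lowest for 25 (41.7%), against 15%. Across the whole array these hearts leaned the other way, as HFD heart 1 was the lowest for 27% of genes and HFD heart 2 the highest for 26.6%, against 5 and 6 of the 60. The highest level in HFD heart 1 together with the lowest in HFD heart 2 occurred for 18 of the 60 genes (30%), against 3.59% of all genes. These 2 hearts were singled out after their values were seen, so the counts are a description with no test.

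**Figure D3:**
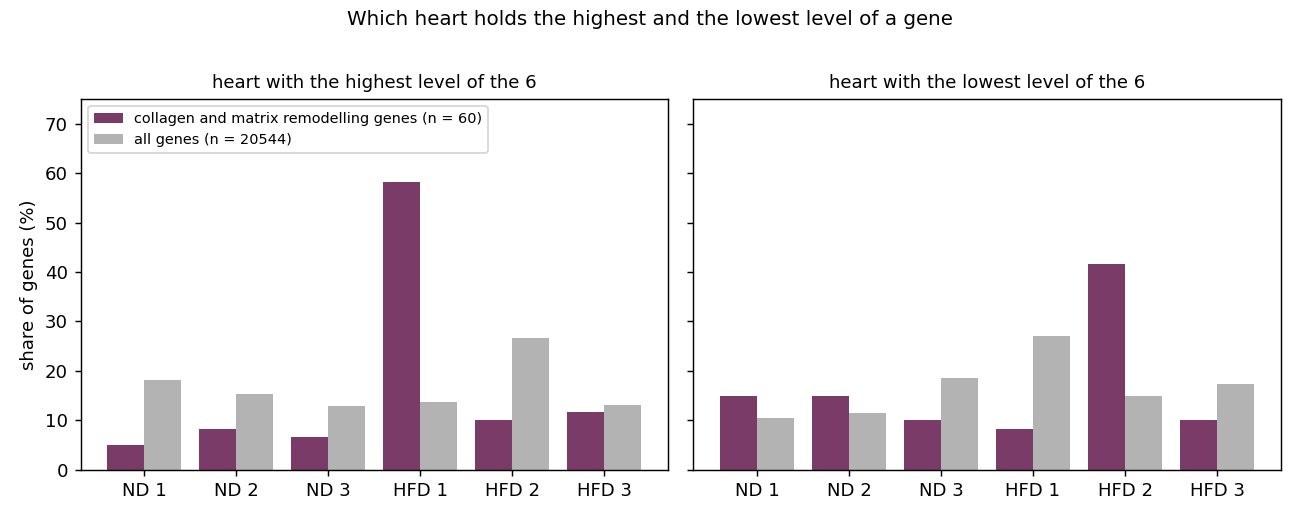
Share of genes in percent (vertical axis) whose highest level (first panel) or lowest level (second panel) of the 6 fell in each heart (horizontal axis), for the 60 collagen and matrix remodelling genes and for all 20544 genes with a value on every array. The matrix genes peak at HFD heart 1 for the highest (58.3%) and at HFD heart 2 for the lowest (41.7%).

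The pattern was seen in several roles. HFD heart 1 was the highest heart for 6 of 8 fibrillar collagens, 6 of 8 glycoproteins and proteoglycans and all 5 lysyl oxidases, and HFD heart 2 was the lowest for 5, 6 and 2 of them. The mean level of the fibrillar collagens was 0.97, 0.92 and 0.95 in the ND hearts and 1.23, 0.85 and 1.07 in the HFD hearts. That of the basement membrane and network collagens was -0.46, -0.34 and -0.36 in the ND hearts and -0.09, -0.68 and -0.39 in the HFD hearts. For each of these means both HFD extremes lay outside the narrow range of the ND hearts. Of the 11 basement membrane and network genes, though, only 4 were highest in HFD heart 1 and 4 lowest in HFD heart 2. Col4a6 and Col18a1 were the only 2 that were both. The brighter Col4a6 probe had levels of 0.26 and -2.50 in HFD hearts 1 and 2, against -1.61 to -1.15 in the ND hearts. Col4a1, Col4a2 and Sparc departed from the pattern: HFD heart 2 was the highest heart for each of them. Collagen VI, Mmp14, Col15a1 and Tgfb2 were also not lowest of the 6 in HFD heart 2. Mmp14, Col15a1, Tgfb2, Col6a1 and Col6a2 were still highest in HFD heart 1, and HFD heart 2 was the lowest of their HFD hearts.

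**Figure D4:**
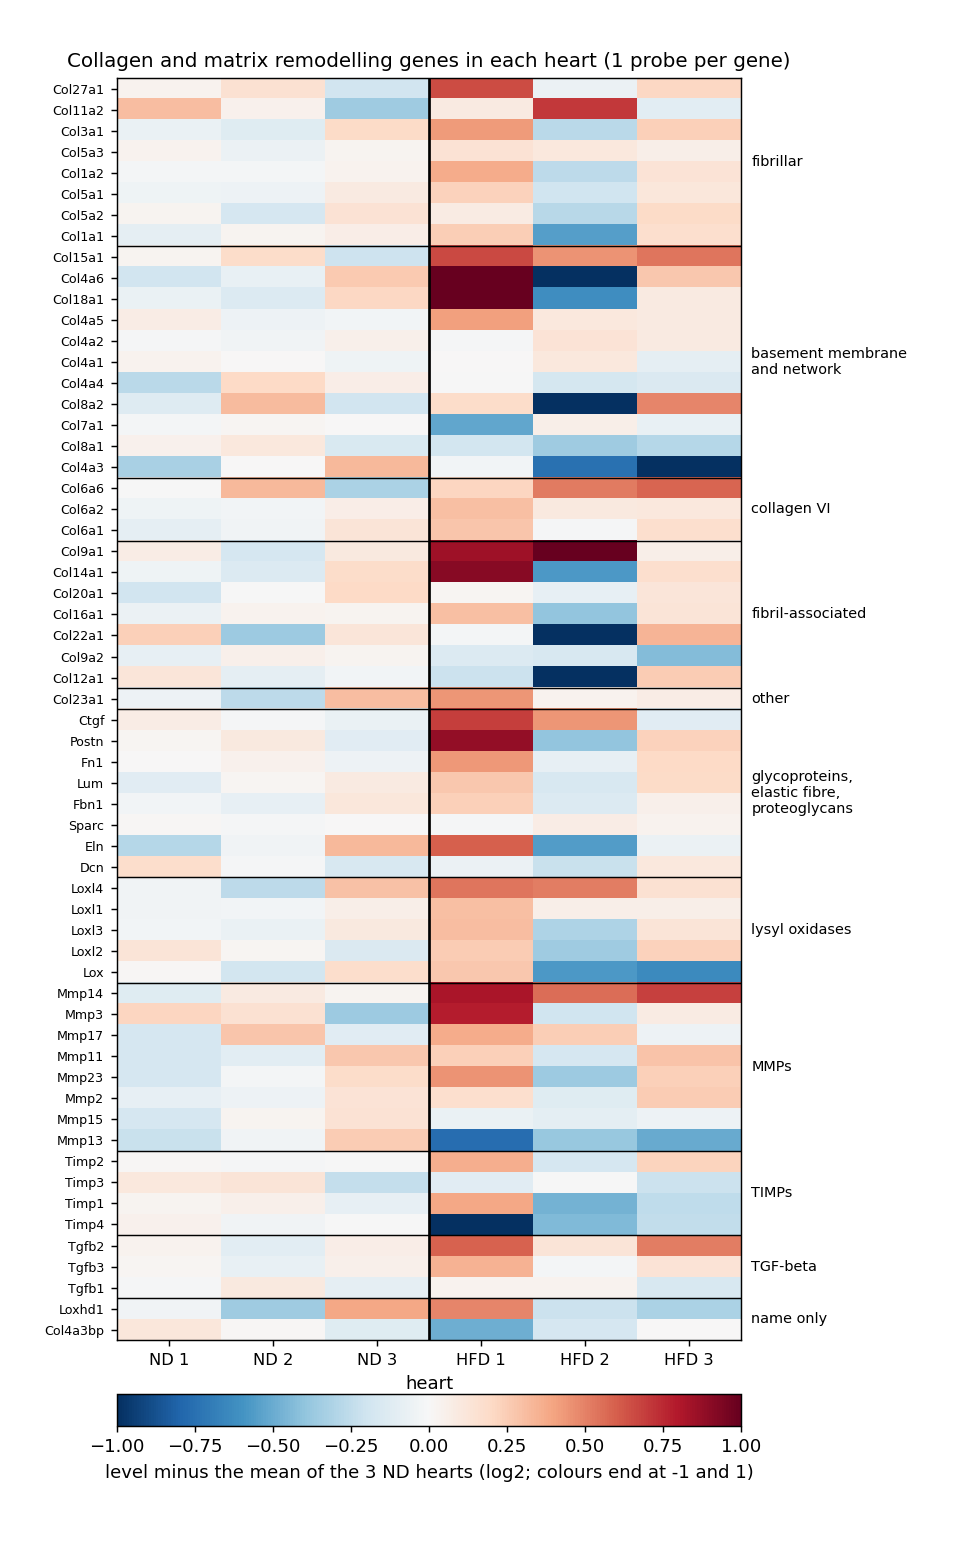
Level of each of the 60 genes (rows, grouped by role) in each heart (columns) minus the mean of the 3 ND hearts, on the log2 scale, with colours that end at -1 and 1. The column of HFD heart 1 is mostly red and that of HFD heart 2 mostly blue for the fibrillar collagens and glycoproteins, while Mmp14 and Col15a1 are red in all HFD hearts.

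Mean levels of markers of several cell types were lowest in HFD heart 2. Those of fibroblast, smooth muscle and pericyte, adipocyte and atrial markers were also highest in HFD heart 1. Those of macrophage and of valve and cartilage markers were not. The mean level of 12 fibroblast markers was 1.81, 1.85 and 1.82 in the ND hearts and 2.03, 1.47 and 1.77 in the HFD hearts, and 8 of the 12 were lowest in HFD heart 2. Between the diets 5 of the 12 had positive and 7 negative log2 fold changes, from -0.40 to 0.49 with a median of -0.11. At p below 0.05, 3 were lower in HFD, Pdgfra among them, and 0 higher, where 6.64% of all tested probes were lower. None of the 12 passed adjustment. Pdgfra was well above background in every heart, with levels of 1.98, 1.88 and 1.92 in ND and 1.54, 1.53 and 1.81 in HFD. Smooth muscle and pericyte markers (11 genes) had a mean level of 3.02, 3.02 and 3.16 in ND and 3.64, 2.88 and 3.11 in HFD. The 5 adipocyte markers had mean levels of -1.75, -0.91 and -0.74 in ND and -0.17, -4.08 and -1.40 in HFD, and all 5 were lowest in HFD heart 2, as were 5 of the 6 atrial genes. The mean of 10 macrophage markers was 0.68, 0.79 and 0.79 in ND and 0.62, 0.28 and 0.66 in HFD, with 8 of the 10 lowest in HFD heart 2. That of 6 valve and cartilage markers was -0.80, -0.33 and -0.67 in ND and -0.38, -1.52 and -0.37 in HFD, with 4 of the 6 lowest there. Mean levels of 10 heart muscle markers stayed within 7.90 to 8.18, and 10 endothelial markers within 2.87 to 2.97. The part of atrial tissue, fat, fibroblasts, macrophages, valve tissue, slide row or array response in the spread of the matrix genes was not tested.

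**Figure D5:**
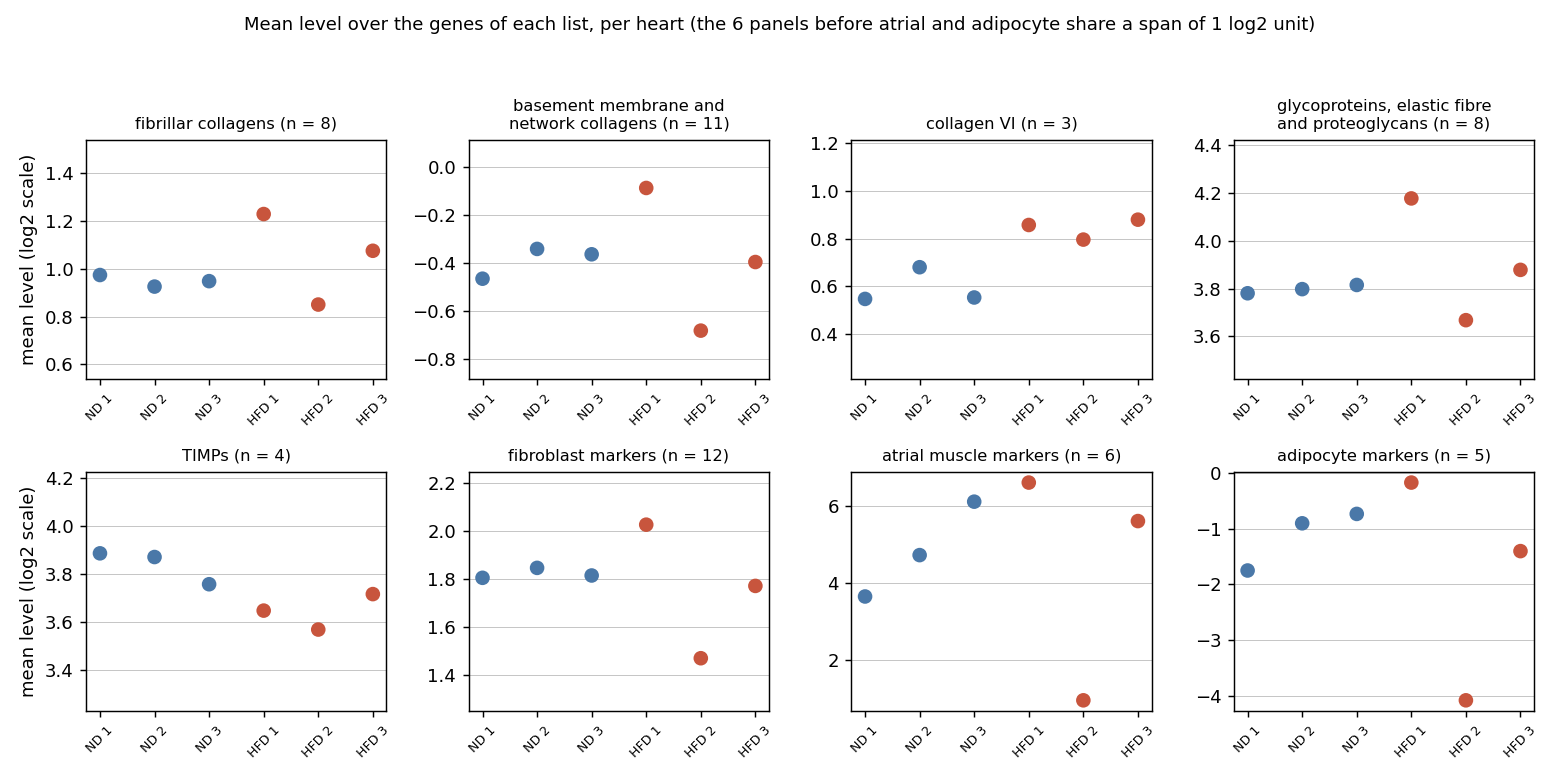
Mean level on the log2 scale (vertical axis) in each heart (horizontal axis) over 5 groups of matrix genes and over fibroblast, atrial muscle and adipocyte markers, with the number of genes in each title. HFD heart 2 is the lowest point for fibrillar and basement membrane collagens, glycoproteins and all 3 marker lists. The HFD hearts lie above the ND hearts for collagen VI, but that mean includes a Col6a6 probe that entered the test only through HFD arrays. The separation of the TIMPs rests on Timp4.

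Other lists differed between the diets rather than between these hearts. All 12 tested immediate early genes, which cells switch on within minutes of a stimulus, had positive log2 fold changes, 8 of them at p below 0.05, and all 7 tested erythroid genes had negative ones, 5 at p below 0.05. Their part in the results for Mmp14, Col15a1 and Tgfb2 was not tested.

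The machinery around the matrix held 1 larger difference. Of 24 tested genes for collagen folding, processing and secretion, 1 was higher and 1 lower at p below 0.05, with a median log2 fold change of -0.04. The higher one was Fkbp10, an endoplasmic reticulum chaperone of collagen I that is mutated in a form of brittle bone disease. Its levels were 3.22, 3.33 and 3.19 in the ND hearts and 4.01, 4.00 and 4.198 in the HFD hearts, which lay close together and far above the ND hearts. They differed by 0.82 log2 units (SE 0.09), a larger difference than that of any collagen gene tested, with an adjusted p of 0.083 (limma). The lower one was Adamts14, a protease that trims procollagen ends, with a log2 fold change of -0.30 (adjusted p = 0.38, limma).

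The ADAM and ADAMTS proteases had 2 genes higher and 1 lower of 15 tested. Adam19, a membrane-bound sheddase, had levels of 2.30, 2.25 and 2.07 in the ND hearts and 2.88, 2.99 and 2.71 in the HFD hearts, which made it 0.65 higher on the log2 scale (SE 0.11, adjusted p = 0.14, limma). Like Mmp14 it was high in all HFD hearts. Adamts4, an aggrecanase, was 0.71 higher (adjusted p = 0.35), and Adamts10, which acts on fibrillin microfibrils, had a value of -0.27 (adjusted p = 0.41, limma). None of the 22 tested genes of TGF-beta activation and signalling was at p below 0.05, with a median of 0.04. Of 12 genes of the plasminogen system and cathepsins 1 was lower, the lysosomal protease Ctsl at -0.25 (adjusted p = 0.37, limma).

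Of 37 other matrix proteins tested, 2 were higher and 1 lower at p below 0.05, with a median log2 fold change of 0.04. The higher genes were Efemp1, a fibulin, at 0.46, and Prelp, a small proteoglycan near the detection limit, at 0.37, with adjusted p values of 0.34 and 0.23 (limma). In this list too HFD heart 2 was the lowest for 20 genes and HFD heart 1 the highest for 18. Comp, a collagen-binding protein of cartilage and tendon, had levels of 2.11, 2.71 and 2.48 in the ND hearts and 2.71, -0.13 and 2.90 in the HFD hearts. It was low in HFD heart 2 alone.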

How the data were processed

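RNA from 3 ND- and 3 HFD-fed mouse hearts was measured on 6 one-colour Agilent arrays. The authors' deposited intensity had been background-subtracted and detrended by Feature Extraction 10.7.1.1, with no scaling between arrays. The authors' deposited log2 table followed a quantile normalization of the same intensities and served as an alternative. Positions are on mm9, as the file headers give them.

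Control spots and 127 to 190 outlier spots per array were left out, spots of a probe were averaged, and the 75th percentile was subtracted on the log2 scale. The diets were then set against each other with limma 3.58.1 (R 4.3.3, lmFit followed by eBayes, two-sided) over all probes tested, each measured on at least 2 arrays per diet, with Benjamini-Hochberg adjustment. An exact permutation test of 3 against 3 cannot go below p = 0.1. The fit was tested on simulated data. Figures used matplotlib 3.10.9. Array number limits the precision. The labels do not state separate litters or cages, so p-values measure the spread between these hearts.

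Genes were named by a fixed list, by p below 0.05, by the 5 largest changes either way and by disagreeing probes (over 0.3 apart, on both sides of 0). Comp was named after its values were seen. The members and lists were chosen with earlier results of these data known.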

Additional observations from a re-analysis of the deposited data

How the results depend on the processing

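No collagen or matrix remodelling probe passed adjustment in any of the 18 other settings, in which the smallest adjusted p was 0.075. The count at p below 0.05, 7 of 78 in the main analysis (8.97%, against 11.9% of all probes), changed with the setting. It was 4 by the methods' t-test (5.13%, against 11.4% of all) and 4 with the slide row as a covariate (5.13%, against 7.74%). With array weights it was 11 (14.1%, against 16.2%). It ran from 3 without ND heart 1 (3.85%, against 7.86%) to 12 of 81 without HFD heart 2 (14.8%, against 12.6%). Of these 12, 11 were higher, and of all 28220 probes 1510 were. Without HFD heart 1 the count was 10 (12.8%, against 11.8%), with 7 lower, and 1577 of all 28000 probes were lower. Over all probes the count of 3275 was 2134 with the slide row and ran from 2181 to 3560 when a heart was left out. The labels name no pairing of same-numbered hearts. Their deviations from the mean of their diet correlated at -0.15, 0.15 and 0.19, and those of differently numbered hearts at -0.30 to 0.19. Deviations of 3 hearts cancel out within a diet, so these values cannot decide whether hearts were paired. With the replicate block 6 of the 78 probes and 3020 of all probes were at p below 0.05. The median log2 fold change of the 60 genes was 0.05 to 0.11 under other scalings, filters and fits, and -0.04 to 0.21 when a heart was left out. Mmp14 and the triple helix probe of Col15a1 were at p below 0.05 throughout, and Mmp13 in all settings except the slide row. In 1 of the 18 settings a gene's probes were averaged, so that its value there is that of the gene. For the 51 named probes, 787 of 913 values kept direction and side of p 0.05, 29 gained it, 39 lost it, and 58 changed sign without passing it. The high share of genes at the ends of HFD hearts 1 and 2 was also computed under other scalings and filters, chosen after seeing the data. With the main analysis included, HFD heart 1 was highest for 51.7% to 62.5% of the genes (12.3% to 19% of all genes) and HFD heart 2 lowest for 41.7% to 46.7% (13.3% to 20%). The cause of these changes was not tested. With 3 arrays per diet and dim signals near background, changes of the dimmest probes are the least certain.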
